A study of Mus musculus with 6 samples.

Results

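The genes described here form the MYC, MAX and MLX network of mouse liver: Myc, Mycn and Mycl (named Mycl1 in older annotation), Max, Mxd1, Mxd3, Mxd4, Mxi1, Mlx and Mlxipl. These 10 genes are taken as a family, and their 12 probes were found through the RefSeq accession that the array files give each probe, among 20018 named genes and 55681 probes in all. Liver RNA of male C57BL/6J mice was hybridised to single-colour Agilent arrays, 1 per sample, with 3 samples collected 3 days after ligation of the left branch of the portal vein (PVBL) and 3 collected 3 days after sham surgery. The right lobe, whose portal branch was not tied, was taken for every sample, so the samples hold all cell types of that lobe. The labels name no genotype, drug or diet for either group and do not say whether replicates were separate animals, so the p-values measure only the spread between these samples. The labelled tissue was checked against 12 hepatocyte marker genes, all of which were well above background on all 6 arrays.

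Proteins of this network carry a basic helix-loop-helix leucine zipper and bind DNA in pairs, most often at the E-box CACGTG. Max is the shared partner: paired with a Myc protein it recruits activators of growth, nucleolar and metabolic genes, and paired with an Mxd protein, Mxi1 or Mnt it recruits Sin3 and histone deacetylases. Mlx is the shared partner of the second branch, in which Mlxipl (ChREBP) answers to glucose and drives glycolytic and lipogenic genes in hepatocytes. In rodent liver Myc is known as a gene induced early after partial hepatectomy.

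RefSeq promoter windows of build GRCm38.p6, from 250 bases before to 50 bases after each annotated start, were matched for 9 of the 10 genes, in 12 entries. The E-box CACGTG, which reads the same on both strands, stood in the windows of 4 of these genes, Max, Mxd4, Mlx and Mlxipl, against 7.15% of all 32851 windows. These 26-base stretches are shown because the E-box is the sequence that the network's own proteins bind, and the capitals mark it.
Max, chr12:76962236-76962261, minus strand: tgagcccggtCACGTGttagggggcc
Mxd4, chr5:34187914-34187939, minus strand: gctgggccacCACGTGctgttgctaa
Mlx, chr11:101087240-101087265, plus strand: tgggttggatCACGTGactgagcctc
Mlxipl, chr5:135089782-135089807, plus strand: ggctgccatcCACGTGctaaggagag
Its first base lay 3, 219, 40 and 98 bases before the start in this order. Mlxipl has a further annotated start 17001 bases downstream, whose window held no E-box, and the 1 Mlxipl probe was not matched to either transcript.

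The GC box GGGCGG, searched on both strands, stood in 9 of the 12 entries, against 35.7% of all windows. Mxd3 held 8 copies, and 0.262% of all windows held 8 or more. Its 250 bases upstream of the start, chr13:55329732-55329981 on the minus strand, are shown because Mxd3 was the member that rose. The capitals mark the GC boxes on the printed strand, some of which overlap by a shared base.
Mxd3: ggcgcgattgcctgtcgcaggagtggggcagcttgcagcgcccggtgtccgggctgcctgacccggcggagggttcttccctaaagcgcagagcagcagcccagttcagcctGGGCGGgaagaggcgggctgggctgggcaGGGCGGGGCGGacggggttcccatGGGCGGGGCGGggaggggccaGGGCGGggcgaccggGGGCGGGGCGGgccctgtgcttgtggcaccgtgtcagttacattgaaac
These matches describe letters in the windows and say nothing of what binds there.

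The arrays had 75th-percentile signals of 331 to 407 units in PVBL and 203 to 315 units in sham, and 48.0% to 53.6% of probes were well above background, with no saturated spot. Correlations of log2 levels were 0.983 to 0.991 within PVBL, 0.991 to 0.996 within sham and 0.956 to 0.968 between the groups. All arrays were on 1 slide with PVBL in one row and sham in the other, and an effect of the row and an effect of the surgery cannot be told apart. Levels are given as log2 signal minus the 75th percentile of the array, so that 0 is the signal of that percentile, and differences are PVBL minus sham with a standard error. A probe was tested where it was well above background on every array of at least 1 group, and it was called where limma's Benjamini-Hochberg adjusted p, over all 27909 tested probes, was under 0.05.

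Of the 12 network probes 11 passed that filter, from 9 of the 10 genes. One was called higher in PVBL, that of Mxd3, and 4 were called lower, both probes of Mxd4, 1 of the 2 probes of Mxd1 and that of Mlxipl. Over all tested probes 11.3% were called higher and 19.3% lower, 30.5% in all, with a median difference of -0.19. On the same 5 of the 11 probes the groups did not overlap, 4 all lower and 1 all higher in PVBL; over all tested probes 50.6% did not overlap, 33% all lower and 17.6% all higher. The Mxd3 probe passed the filter through the PVBL arrays alone, so its being brighter there was fixed by its selection. Bulk tissue was measured, and fewer cells of a type and less RNA per cell cannot be told apart in any of these values.

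**Figure D1:**
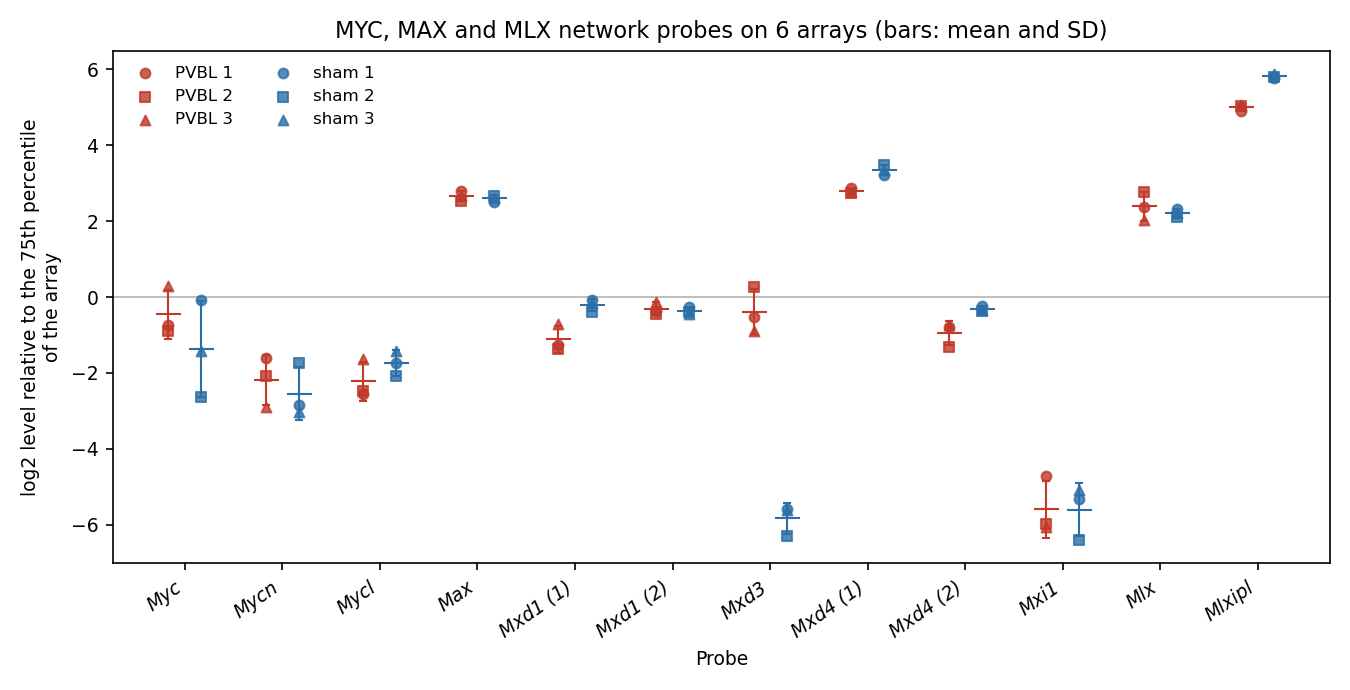
Log2 level of each of the 12 network probes relative to the 75th percentile of its array, with PVBL in red left of sham in blue, a symbol for each replicate number, and the mean with its SD (n = 3). Mxd1 (1), both Mxd4 probes and Mlxipl lay lower on all PVBL arrays, Mxd3 lay near 0 in PVBL and under -5 in sham, and Myc spread over more than 2.5 units within sham; levels of different probes are not comparable.

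Myc, the best known activator of the family, had log2 levels of -0.74, -0.90 and 0.29 in PVBL, against -0.07, -2.62 and -1.42 in sham. The groups overlapped, with PVBL replicate 3 the highest and sham replicate 1 above the other two PVBL arrays. The sham arrays spanned a 5.86-fold range of signal, against 2.29-fold among the PVBL arrays. This probe was printed on 2 spots of each array, and the spots of an array differed by at most 0.35, so the spread lay between arrays. The difference was 0.92 ± 0.63 with a 95% interval of -0.56 to 2.39 and was not called (limma, adjusted p = 0.289).

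The estimate for Myc moved by more than 1.5 times with single arrays and was called in none of the 18 alternatives that gave it a value, all of them positive. Without sham replicate 1 it was 1.57 (limma, adjusted p = 0.0730), without sham replicate 2 it was 0.29 (adjusted p = 0.697), and without PVBL replicate 3 it was 0.55 (adjusted p = 0.561). It was likewise 0.55 with normexp background correction. The interval runs from a fall to a rise, so a direction for Myc at day 3 was not detectable with these 6 arrays. PVBL replicate 3, the highest in Myc, also had the highest summed level of the 11 Kupffer and macrophage markers tested (315, against 126 and 132 on the other PVBL arrays and 187, 169 and 189 in sham replicates 1 to 3, in multiples of the 75th percentile), all 11 of them well above background on all arrays. The other arrays did not keep this order. PVBL replicates 1 and 2 had the lowest sums, yet lay above sham replicates 2 and 3 in Myc. The part of these markers in the spread of Myc was not tested.

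Mycn, the paralogue best known from neural and embryonic tissue, had levels of -1.60, -2.07 and -2.89 in PVBL, against -2.85, -1.73 and -3.03 in sham. The arrays spread over 1.29 in PVBL and 1.30 in sham, and the groups overlapped almost fully. Its difference of 0.35 ± 0.43 (95% interval -0.66 to 1.36) was not called (limma, adjusted p = 0.548), and it ranged from 0.06 to 0.76 over the alternatives.

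Mycl, the third Myc protein gene, had levels of -2.56, -2.47 and -1.63 in PVBL, against -1.73, -2.08 and -1.41 in sham. PVBL replicate 3 was the exception among the PVBL arrays and lay within the sham values. The difference was -0.48 ± 0.29 (95% interval -1.16 to 0.20, limma adjusted p = 0.232). Without PVBL replicate 3 it was -0.77 and was called (adjusted p = 0.0409), the only alternative that gave a call, while spike-in scaling gave -0.09.

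Max, the obligate partner of the Myc and Mxd proteins, had levels of 2.79, 2.54 and 2.66 in PVBL, against 2.51, 2.67 and 2.62 in sham. All 6 arrays lay within 0.28 of each other, and the groups overlapped. The difference of 0.06 ± 0.13 was not called, and its 95% interval of -0.24 to 0.37 is narrow beside those of Myc and Mycn (limma, adjusted p = 0.724). With spike-in scaling it was 0.45 and likewise not called.

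Mxd3, an Mxd repressor that mouse studies place in the S phase of proliferating progenitor cells, had levels of -0.54, 0.27 and -0.89 in PVBL, against -5.58, -6.30 and -5.61 in sham. In signal units these were 281, 399 and 184 in PVBL, against 6.6, 3.8 and 4.2 in sham. The probe was well above background on 3 of 3 PVBL arrays and on 0 of 3 sham arrays, where the dimmest probe well above background gave 11.9 to 16.1 units. Against that detection floor Mxd3 was at least 14.3-fold higher in PVBL. The fitted difference of 5.45 ± 0.33 (limma, adjusted p = 9.42e-05) is no measure of size, since it rests on sham signals not well above background, and normexp correction gave 2.00. Mxd3 was called in all 18 alternatives that tested it. Its being brighter in PVBL was fixed by its selection, so neither these calls nor its adjusted p are support. The deposited value table, whose rows all separate the groups, was 1 of the 18, and the filter that required all 6 arrays left Mxd3 out.

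Markers of dividing cells were set beside Mxd3, whose being brighter in PVBL was fixed by its selection. Of 12 cycling cell markers 11 were called higher and none lower, with a median difference of 5.30, against 14.4% of named genes higher. Only 10 of the 12 were well above background on all arrays, and of those 9 were called higher. Their summed level was 132, 212 and 123 times the 75th percentile in PVBL, against 15.9, 15.8 and 14.3 in sham. PVBL replicate 2 had the highest value and PVBL replicate 3 the lowest of the PVBL arrays in both Mxd3 and this sum. Among named genes, the 5 whose log2 levels correlated most with those of Mxd3 over the 6 arrays were Cdca5, Alg8, Ncaph, Zwilch and Kif22, each with r = 0.999. Cdca5 and Ncaph serve sister chromatid cohesion and condensation, Zwilch the kinetochore, Kif22 chromosome movement, and Alg8 protein glycosylation. These correlations rest on a gap between 2 groups of arrays and on sham values of Mxd3 below background, and are a description.

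Mxd1, the founding Mxd repressor, known from terminally differentiating cells, was measured by 2 probes that disagreed. The first, A_51_P490795, had levels of -1.27, -1.36 and -0.71 in PVBL, against -0.06, -0.40 and -0.16 in sham. All PVBL arrays lay under all sham arrays, and the probe was called 1.88-fold lower (difference -0.91 ± 0.20, limma adjusted p = 0.0169). The second, A_55_P2025248, had levels of -0.36, -0.45 and -0.12 in PVBL, against -0.27, -0.40 and -0.44 in sham. There the groups overlapped and the difference was 0.06 ± 0.14 (95% interval -0.27 to 0.39, limma adjusted p = 0.761).

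The gap between the Mxd1 probes within each array, the first minus the second, was -0.91, -0.91 and -0.59 in PVBL, against 0.21, 0.01 and 0.27 in sham. This comparison was added after the values were seen. The groups did not overlap, and the exact two-sided permutation test gave p = 0.1, the smallest value that 3 arrays against 3 can give. Both probes carry the same accession, and no direction for Mxd1 as a gene was settled. The call of the first probe was lost without PVBL replicate 1 (-0.83, adjusted p = 0.0545), sham replicate 1 (-0.84, adjusted p = 0.0652) or sham replicate 3 (-0.89, adjusted p = 0.0568), and with spike-in scaling (-0.52, adjusted p = 0.271). With no filter on dim probes it was not called either (limma, adjusted p = 0.0696). The named genes most like this probe over the 6 arrays were Gem, Trim34a, C9orf72, Cntf and Smpdl3a, with r of 0.992 to 0.996.

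Mxd4, a repressor of the same family whose promoter window holds the E-box shown above, was lower in PVBL by both of its probes. Probe A_55_P2117928 had levels of 2.89, 2.74 and 2.77 in PVBL, against 3.23, 3.49 and 3.36 in sham, with no overlap. It was 1.48-fold lower (difference -0.56 ± 0.13, limma adjusted p = 0.0190). Probe A_55_P2172121 had levels of -0.80, -1.31 and -0.74 in PVBL, against -0.23, -0.37 and -0.34 in sham, again with no overlap. It was 1.55-fold lower (difference -0.64 ± 0.18, limma adjusted p = 0.0351).

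The Mxd4 calls depended on single arrays and on scaling, although both differences were negative in every alternative. Probe A_55_P2117928 lost its call without sham replicate 2 (-0.50, adjusted p = 0.0730) or sham replicate 3 (-0.56, adjusted p = 0.0575), with scaling on the array median (-0.43) and with spike-in scaling (-0.17). Probe A_55_P2172121 lost its call without PVBL replicate 1 (-0.71), sham replicate 1 (-0.59), sham replicate 2 (-0.67) or sham replicate 3 (-0.65). It also lost it with scaling on the array median (-0.50), on the 75th percentile of probes detected on all arrays (-0.60) and on spike-ins (-0.25). With no filter on dim probes neither Mxd4 probe was called (limma, adjusted p = 0.0893 and 0.122).

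Mxi1, the fourth of these repressors, was read by 1 probe and has 3 annotated starts, so its values describe that probe and not every transcript. The probe was well above background on 0 of the 6 arrays, with signals of 5.1 to 15.4 units in PVBL and 3.6 to 7.8 units in sham. It was not tested.

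Mlx, the partner of the glucose-sensing branch, had levels of 2.36, 2.78 and 2.03 in PVBL, against 2.32, 2.12 and 2.21 in sham. The sham values lay inside the range of the PVBL values. Its difference of 0.17 ± 0.20 (95% interval -0.30 to 0.65) was not called (limma, adjusted p = 0.535). It was -0.02 without PVBL replicate 2 and 0.35 without PVBL replicate 3, so single arrays turned its sign, and 0.56 with spike-in scaling.

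Mlxipl, the glucose-responsive factor itself, had levels of 4.91, 5.04 and 5.05 in PVBL, against 5.76, 5.81 and 5.88 in sham. Every PVBL array lay under every sham array, and the gap between the groups was larger than the spread within either. Mlxipl was 1.76-fold lower in PVBL (difference -0.82 ± 0.12, limma adjusted p = 0.00401). Leaving out any single array gave -0.84 to -0.77, all called, and the call was lost only with spike-in scaling (-0.43, adjusted p = 0.306). The summed level of the 12 hepatocyte markers was also lower, at 6407 to 8056 times the 75th percentile in PVBL against 9042 to 10190 times in sham, with 3 of 12 called lower and a median difference of -0.39. None of the 12 was called lower with quantile normalization (median 0.02), with spike-in scaling (median 0.00) or without sham replicate 2, and 1 was without sham replicate 1 or sham replicate 3, by limma throughout. Their part in the fall of Mlxipl was not tested.

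**Figure D2:**
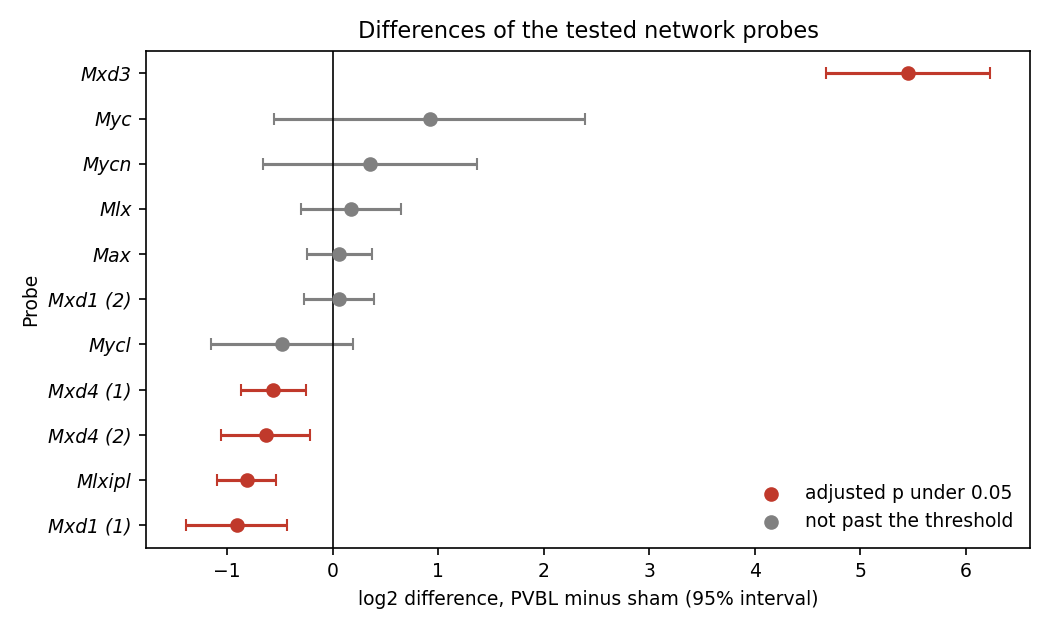
Log2 difference, PVBL minus sham, with its 95% interval from limma for the 11 tested network probes, in red where the adjusted p was under 0.05. Mxd3 stands apart on the right at a fitted 5.45 that rests on sham values below background, and the 4 probes called lower lie between -0.56 and -0.91.

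The log2 signal of a member minus that of Max on the same array is not moved by any scaling of whole arrays. Mlxipl set against Max differed by -0.88 between PVBL and sham arrays, and the groups did not overlap. Mlxipl relative to Mlx differed by -0.99, Mxd4 relative to Max by -0.63 and -0.70 and the first Mxd1 probe by -0.97, all with no overlap. Each of these 5 contrasts reached p = 0.1 in the exact two-sided permutation test, the smallest it can give, or 0.2 after Benjamini-Hochberg adjustment over 10 contrasts. Mxd3 against Max, at a fitted 5.38, is left out of these tests, since its separation was fixed by its selection. Myc, Mycn, Mycl, the second Mxd1 probe and Mlx overlapped, with differences of 0.85, 0.29, -0.54, -0.00 and 0.11. Such a contrast shows unequal change of 2 probes and not which of them changed. The share of all tested probes that would separate from Max in this way was not computed, while 50.6% of them did not overlap in level. The 5 contrasts use the probes already called lower from the same values, and add no support.

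Of the network genes outside the 10, Mnt, a broadly expressed Max partner that represses, had levels of 2.54, 2.50 and 2.49 in PVBL, against 3.54, 3.37 and 2.95 in sham. The groups did not overlap, and Mnt was called lower (difference -0.78 ± 0.17, limma adjusted p = 0.0171). Mnt was not called without sham replicate 1 (-0.65), without sham replicate 2 (-0.73), with spike-in scaling (-0.39) or with no filter on dim probes. Mga, a Max partner of a non-canonical Polycomb complex, differed by -0.02 ± 0.23 (limma, adjusted p = 0.958). Mlxip (MondoA), the paralogue of Mlxipl, differed by -0.56 ± 0.28 in its brighter probe (limma, adjusted p = 0.165), and 1 of its 2 probes was called lower. The brighter probe gave -0.24 without PVBL replicate 2, -0.79 without PVBL replicate 3 and -0.17 with spike-in scaling. That probe was well above background on only 2 of 3 PVBL arrays. Its level of -4.20 on PVBL replicate 2 lay under the detection floor of that array (-3.80).

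Genes that act with, upstream or downstream of the network were taken as lists, with 1 probe per gene. Among 13582 named genes 14.4% were called higher and 16.8% lower, 31.2% in all, with a median difference of -0.10. Spike-in scaling raised the probe-level median to 0.20, and scaling on the array median raised it to -0.06, so that every difference below is relative to the bulk of genes. Lost calls named below are those with single arrays and, where said, with other alternatives. The alternatives not named took further calls.

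Of 50 genes known to be induced by Myc, 10 (20%) were called higher and 2 (4%) lower, with a median of 0.21. The largest rises were in Nop58 (1.45 ± 0.16) and Nop56 (1.07 ± 0.20), core proteins of the small nucleolar particles that methylate ribosomal RNA, in Tfrc (1.42 ± 0.19), the transferrin receptor, and in Cdc25a (1.26 ± 0.14), a phosphatase that activates cyclin-dependent kinases. Nop58 had levels of 2.72, 2.96 and 2.49 in PVBL, against 1.17, 1.35 and 1.31 in sham, so its groups lay far apart, and these 4 genes were called in every alternative run. Id2, an inhibitor of helix-loop-helix factors, was lower (-1.03 ± 0.18), as was Shmt1, of cytosolic folate metabolism (-0.77 ± 0.17). Id2 lost its call with spike-in scaling alone (-0.64). Shmt1 lost its call without any one sham array (-0.78 to -0.77), with spike-in scaling (-0.38) and with no filter on dim probes. The count called higher was 16 without PVBL replicate 3 and 6 without sham replicate 1 or without sham replicate 2. Slc7a5 was fitted without PVBL replicate 1, whose spot was an outlier.

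Of 12 genes known to be repressed by Myc, 3 (25%) were called higher and 3 (25%) lower, with a median of -0.11, or 0.28 with spike-in scaling. Cdkn1a, which encodes the cell cycle inhibitor p21, had levels of 2.28, 2.41 and 2.19 in PVBL, against -3.30, -3.14 and -3.00 in sham, a difference of 5.44 ± 0.14. Klf6, a zinc finger factor of injury (1.84 ± 0.24), and Gadd45b, a stress sensor (1.47 ± 0.21), rose as well. Cebpa, a factor of hepatocyte differentiation (-1.03 ± 0.19), Ndrg2 (-0.97 ± 0.12) and Cdkn1c, the p57 inhibitor (-0.80 ± 0.15), fell, and these 3 lost their calls with spike-in scaling (-0.64, -0.58 and -0.41). The list therefore held large differences in both directions.

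Of 30 targets of Mlxipl, 1 (3.33%) was called higher and 7 (23.3%) lower, with a median of -0.27, or 0.12 with spike-in scaling. G6pc, glucose-6-phosphatase, had levels of 5.12, 3.99 and 4.65 in PVBL, against 6.31, 6.92 and 6.42 in sham, a difference of -1.97 ± 0.30. Klf10, a glucose-responsive zinc finger factor, differed by -1.85 ± 0.37, and both were called lower in every alternative run, spike-in scaling included (-1.58 and -1.46). Acacb, the mitochondrial acetyl-CoA carboxylase (-1.32 ± 0.32), and Thrsp, a lipogenic factor (-1.16 ± 0.37), were called lower as well. Acacb lost its call when any one array other than the third of each group was left out (-1.36 to -1.01), and Thrsp without any one array other than sham replicate 3 (-1.29 to -0.73). Acacb and Thrsp also lost their calls with spike-in scaling (-0.93 and -0.77) and with no filter on dim probes. Thrsp lost its call under every other scaling tried. Tkt, transketolase, was the 1 gene called higher (0.66 ± 0.16), though not without sham replicate 1 or sham replicate 3 (0.54 to 0.69).

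The lipogenic and glycolytic genes that textbooks give first as Mlxipl targets, named here after their values were seen, did not pass the threshold. Pklr, liver pyruvate kinase, differed by -0.33 ± 0.46, Fasn, fatty acid synthase, by -0.25 ± 0.52, Acly, ATP citrate lyase, by -0.13 ± 0.26 and Elovl6, a fatty acid elongase, by 0.26 ± 0.23, with adjusted p from 0.404 to 0.734 (limma). Pklr had levels of 0.73, 0.39 and 0.36 in PVBL, against 0.68, 1.91 and -0.12 in sham. The sham arrays thus spread over a wider range than the PVBL arrays, with sham replicate 2 the highest and sham replicate 3 the lowest, an order also seen in Fasn (1.41, 1.28 and 1.53 in PVBL, against 1.65, 2.82 and 0.48 in sham). Of the targets, 4 were called lower when PVBL replicate 1, PVBL replicate 2 or sham replicate 1 was left out, 3 without sham replicate 2 and 9 without sham replicate 3.

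Of 13 genes set upstream of Mlxipl or known to act on it, limma called none higher (0 also at an unadjusted p under 0.05) and 5 (38.5%) lower, with a median of -0.23, or 0.16 with spike-in scaling. Srebf1, the insulin-responsive lipogenic factor, had levels of 0.62, 0.45 and 0.09 in PVBL, against 1.64, 2.01 and 1.37 in sham, a difference of -1.28 ± 0.21. Fbp1, of gluconeogenesis, differed by -0.998 ± 0.14, and both lost their calls with spike-in scaling alone (-0.89 and -0.61). Rxra, the shared partner of nuclear receptors (-0.74 ± 0.18), and Sirt1, a deacetylase (-0.64 ± 0.19), lost theirs when any one of 4 arrays was left out, PVBL replicate 2 or a sham array for Rxra (-0.78 to -0.65), and any but PVBL replicate 3 and sham replicate 2 for Sirt1 (-0.62 to -0.51). Rxra and Sirt1 also lost their calls with spike-in scaling (-0.35 and -0.25) and with no filter on dim probes. The count called lower was 2 without PVBL replicate 2, sham replicate 1 or sham replicate 3, and 3 without sham replicate 2. Hnf4a, a hepatocyte factor named here after its values were seen, differed by -0.17 ± 0.14 and missed the threshold (limma, adjusted p = 0.398).

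**Figure D3:**
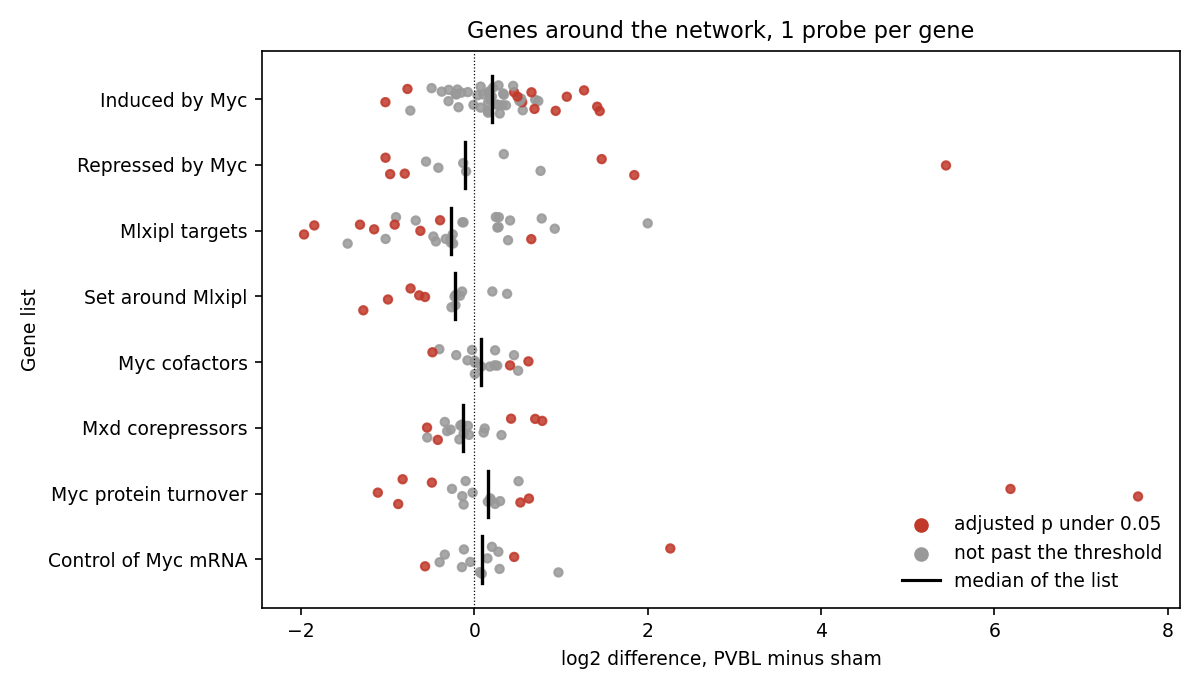
Log2 difference, PVBL minus sham, of each tested gene in 8 lists around the network (1 probe per gene, vertical jitter only for visibility), in red where limma's adjusted p was under 0.05, with a bar at each list's median. Genes known to be repressed by Myc lie on both sides of 0, and 7 of the 8 called Mlxipl targets lie left of it.

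Of 15 genes that control Myc mRNA, 2 (13.3%) were called higher and 1 (6.67%) lower, with a median of 0.08, and with spike-in scaling 2 were called higher and 0 lower. Egr1, an immediate early factor, had levels of 2.60, 3.22 and 2.20 in PVBL, against 1.22, 0.55 and -0.53 in sham (difference 2.26 ± 0.45, limma adjusted p = 0.0120), and was called in every alternative run. Fubp1, which binds an element upstream of Myc, was called higher (0.46 ± 0.13), though not without PVBL replicate 1 or any one sham array (0.38 to 0.48). With spike-in scaling Fubp1 was not called either (0.85). Tcf7l2, an effector of Wnt signalling, was called lower in its brightest probe (-0.57 ± 0.16), the 1 of 3 that was called. That call was lost without any one array (-0.67 to -0.44). The non-coding neighbour of Myc, Pvt1, named here after its values were seen, had levels of 0.50, 0.68 and 0.61 in PVBL, against -0.71, -0.90 and 0.49 in sham. Its groups did not overlap, yet its difference of 0.97 ± 0.35 missed the threshold (limma, adjusted p = 0.0707), and without sham replicate 3 it was 1.40 and called.

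Of 19 genes of Myc protein turnover, 4 (21.1%) were called higher and 4 (21.1%) lower, with a median of 0.15, and with spike-in scaling 3 were called higher and 0 lower. The mitotic kinases Plk1, at a fitted 7.66 ± 0.16 and well above background on 1 of 3 sham arrays, and Aurka, at 6.19 ± 0.22, had by far the largest fitted rises, and both belong to the genes of dividing cells. Plk1 passed the filter through the PVBL arrays alone, so its call higher leaned on its selection and is no support. Where all 6 arrays had to be above background, 3 of 18 genes were called higher and 4 lower. Aurka had levels of 3.30, 3.51 and 2.70 in PVBL, against -3.00, -2.90 and -3.14 in sham. Pim1, a kinase that phosphorylates Myc (0.63 ± 0.19), and Fbxl14, a ubiquitin ligase subunit (0.53 ± 0.13), were also called higher, though Pim1 not without any one array other than PVBL replicate 3 (0.53 to 0.69) and Fbxl14 not without PVBL replicate 1 or any one sham array (0.44 to 0.58). The ubiquitin ligase subunit gene Btrc (-1.11 ± 0.22 in its brighter probe, the 1 of 2 that was called), the phosphatase subunit gene Ppp2r5a (-0.83 ± 0.13), the ligase subunit gene Fbxo32 (-0.88 ± 0.20) and the deubiquitinase gene Usp28 (-0.49 ± 0.13) were lower. Fbxo32 lost its call without sham replicate 1 or sham replicate 3 (-0.89 to -0.81), Usp28 without any one array other than PVBL replicate 3 (-0.53 to -0.44), and Btrc and Ppp2r5a with spike-in scaling alone (-0.72 and -0.44). With spike-in scaling Fbxo32 (-0.49), Usp28 (-0.10) and Fbxl14 (0.92) lost their calls too.

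Of 17 cofactors of Myc, 2 (11.8%) were called higher and 1 (5.88%) lower, with a median of 0.08. Smarcb1, a chromatin remodelling subunit (0.62 ± 0.17), Supt5, an elongation factor (0.41 ± 0.13), and Wdr5, a histone methyltransferase subunit (-0.48 ± 0.13), were the 3, and these calls rested on single arrays. Smarcb1 was not called without any one array other than PVBL replicate 3 (0.50 to 0.71), Wdr5 without any one other than PVBL replicate 2 (-0.53 to -0.41), and Supt5 without any one of the 6 (0.35 to 0.45). Wdr5 also lost its call with scaling on the array median and with spike-in scaling (-0.09).

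Of 18 genes of the Sin3 and deacetylase corepressors through which Mxd proteins act, 3 (16.7%) were called higher and 2 (11.1%) lower, with a median of -0.13, or 0.26 with spike-in scaling. Rbbp7, a histone-binding subunit, had levels of 4.99, 5.16 and 4.83 in PVBL, against 4.36, 4.19 and 4.33 in sham (0.70 ± 0.14), was called by both of its probes and held its call without any one array. Sap30, a Sin3 subunit (0.78 ± 0.19), was not called without PVBL replicate 2, sham replicate 1 or sham replicate 2 (0.67 to 0.74). Hdac1, a deacetylase (0.42 ± 0.13), and Suds3, a Sin3 subunit (-0.42 ± 0.13), were not called without any one array (0.33 to 0.47 and -0.48 to -0.37), and Sap18, likewise of the Sin3 complex (-0.55 ± 0.16), without any one array other than sham replicate 2 (-0.61 to -0.41). With spike-in scaling Suds3 stood at -0.03 and Sap18 at -0.16, and there 2 genes of the list were called higher and 0 lower. The shares called lie near those of all genes.

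Markers of other cells were counted in the same way, beside 14.4% of all named genes called higher and 16.8% called lower. Stellate cell markers were called higher in 6 of 12 and lower in 1, with summed levels of 218 to 248 in PVBL against 162 to 174 in sham, and biliary markers were called higher in 5 of 9 and lower in 1, with 8.71 to 28.8 in PVBL against 2.62 to 5.39 in sham. Only 11 of these stellate and 5 of these biliary markers were well above background on all arrays. The rest passed the filter through 1 group alone, and their direction leaned on that selection. Where all 6 arrays had to be above background, 3 of 5 biliary markers were called higher and 0 lower. Of 11 stellate markers 5 were then called higher and 1 lower. Endothelial markers were called lower in 2 of 12 and higher in none, with 52.9 to 81.8 in PVBL against 117 to 125 in sham. Kupffer and macrophage markers were called higher in 1 of 11, lymphocyte markers lower in 2 of 10 and erythroid markers lower in 2 of 6, and none of 6 granulocyte markers was called by limma, with 0 at an unadjusted p under 0.05. The endothelial (16.7% lower), lymphocyte (20% lower) and Kupffer and macrophage (9.09% higher) shares lie near or under those of all genes. Without PVBL replicate 3, 9 of the Kupffer and macrophage markers and 7 of the endothelial markers were called lower. Their part in the values of the network genes was not tested.

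**Figure D4:**
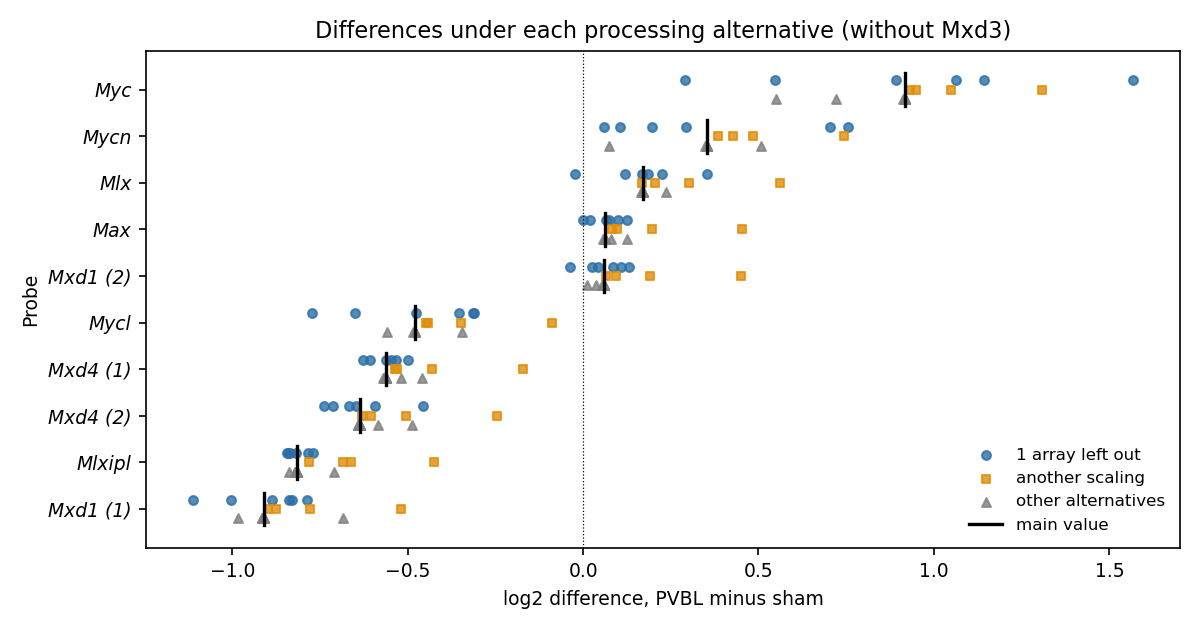
Log2 difference, PVBL minus sham, of the tested network probes other than Mxd3 under each processing alternative, with blue circles for 1 array left out, orange squares for another scaling, grey triangles for the other alternatives and a bar for the main value. The spike-in square lies farthest right in all lines but those of Myc and Mycn, the Mxd1 (1), Mxd4 and Mlxipl values stay left of 0, and those of Myc stay right of 0 over a range of 0.29 to 1.57.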

How the data were processed

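Cy3-labelled total RNA of 6 liver samples was measured, 3 PVBL and 3 sham, grouped by the labels' source names. The deposited scanner files hold intensity values per spot, background-corrected by Agilent Feature Extraction 10.7.3.1 per the file headers; the submitters' processing notes name version 9.1. The deposited value table holds log2 values, which matched the scanner values after scaling and centring of each gene, and served as an alternative; in all its rows the groups do not overlap, so a call there was fixed by which rows it holds and is no support.

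Control spots (3671) and spots flagged as outliers were dropped, replicate spots averaged, and log2 processed signals scaled on each array's 75th percentile. Probes were tested with limma 3.58.1 in R 4.3.3 (lmFit and eBayes, two-sided), after a check on simulated data. A gene with several probes was represented in lists by the brightest over all arrays. Symbols came from RefSeq (GRCm38.p6) by accession, for 26413 probes. Named genes were all 10 members and, in each list, up to 4 called rises and 4 called falls of largest size; exceptions are said. The members and lists were chosen with earlier results of these data known. Alternatives covered background correction (normexp, offset 50, on median signals, since the files give no mean signal), scaling, filters, weights, a replicate block, the value table and each array left out. Same-numbered samples did not all deviate together (r = 0.20, -0.04 and 0.23), so the numbers were not taken as pairs. The number of arrays limits the precision.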

Additional observations from a re-analysis of the deposited data

How the results depend on the processing

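Over 19 alternatives, 200 values of network probes held 180 on the same side of the threshold, 19 that lost a call and 1 that gained one. No call changed direction. Values that were not called turned their sign for Mlx without PVBL replicate 2 (-0.02) and for the second Mxd1 probe without PVBL replicate 3 (-0.04). Of 823 values of 44 named list genes 160 lost a call and 5 gained one. Of all probes 8516 were called, against 4016 with spike-in scaling, 3621 with no filter on dim probes (of 55681 tested), 4476 with 1 probe per named gene (of 13582), and 4160 to 8496 without 1 array, with the fewest without sham replicate 1. The share of calls that were higher was 36.9%, but 54.8% with scaling on the array median and 84.2% with spike-in scaling. The Mxd3 call, the 1 called higher, became 0 where all 6 arrays had to be above background, because Mxd3 was then not tested. The 4 probes called lower became 2 with scaling on the array median or with 1 probe per gene, 0 with spike-in scaling, which leaned on 13 control probes, 1 with no filter on dim probes, and 1 to 5 without 1 array: 1 without sham replicate 3, and 2 without PVBL replicate 1, sham replicate 1 or sham replicate 2. Why scaling moved these calls was not tested. With the replicate block 7390 probes were called, and 1 network probe was called higher and 4 lower as before; 2 of 3 sample numbers correlated best with their own number. Of the contrasts against Max, 5 did not overlap, Mxd3 included, and 5 or 6 in the 8 alternatives they were run under (normexp, quantile and 1 array left out). The share over all tested probes was not computed for such contrasts. The values above include 5 of network probes and 33 of list genes from the deposited value table, where calls were fixed by its row selection. Signal over background limited Mxi1 and the sham level of Mxd3.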
